A study of Rattus norvegicus with 22 samples.

Results

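Trem2 and 9 other genes of the microglial response to damage, namely Tyrobp, Clec7a, Itgax, Axl, Cd68, Gpnmb, Lgals3, Cd9 and Cst7, were followed by RNA-seq in the injured hippocampus of the rat. The 10 genes were taken by name from the table of read counts, and 9 of them were found among its 17172 genes and also among the 12875 genes with enough reads to test. Itgax, which encodes the integrin CD11c, was not analysed here. All animals were adult male Sprague-Dawley rats, an outbred strain, and the labels name no engineered allele. Traumatic brain injury (TBI) was given as lateral fluid percussion (LFP), a pressure pulse delivered to the intact dura through a hole in the skull. Sham rats had the same surgery and the same time under anesthesia without the pulse, so skull opening and anesthesia were shared by all 4 groups. Bulk ipsilateral hippocampus was collected on day 1 (2 sham and 4 TBI rats) or on day 14 (4 sham and 4 TBI rats), with 1 library from each of the 14 rats.

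TREM2 is a receptor on microglia and macrophages that binds lipids and lipoproteins, and it has no signaling tail of its own. It signals through TYROBP, an adaptor also called DAP12, whose phosphorylated tail recruits the kinase SYK. In mouse models of amyloid deposition, microglia near plaques lose homeostatic genes such as P2ry12 and Tmem119 and gain genes of phagocytosis, lysosomes and lipid handling, in a first stage that does not need TREM2 and a second stage that does. Tyrobp belongs to the first of these stages, and Trem2, Clec7a, Axl, Cd68, Gpnmb, Lgals3, Cd9 and Cst7 are used as markers of the second stage or of activated phagocytes more widely. Several of these genes are not particular to microglia: Cd9 and Axl are also used by glia and vessels, and Lgals3, Gpnmb and Cd68 by macrophages that enter from blood.

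The 250 bases before the annotated start of transcription were available for 8 of the 10 genes from RefSeq, in the newer rat build GRCr8. They are shown for Cd68 and Gpnmb, which rose on both days, for Cst7, which had reads almost only in TBI day 1 libraries, and for Trem2, which rose at day 14. Capitals mark matches to any of 4 motifs searched on both strands: AGGAAGT (the core bound by PU.1, the macrophage factor encoded by Spi1), TGANTCA (AP-1), CACGTG (E-box) and TTCNNNGAA (STAT).
Cd68 (chr10:54882442-54882691, minus strand): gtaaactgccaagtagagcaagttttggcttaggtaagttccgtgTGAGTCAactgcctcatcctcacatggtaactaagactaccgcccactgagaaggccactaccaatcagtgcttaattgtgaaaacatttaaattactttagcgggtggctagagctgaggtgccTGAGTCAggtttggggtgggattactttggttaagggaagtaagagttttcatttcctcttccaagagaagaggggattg
Gpnmb (chr4:79340878-79341127, plus strand): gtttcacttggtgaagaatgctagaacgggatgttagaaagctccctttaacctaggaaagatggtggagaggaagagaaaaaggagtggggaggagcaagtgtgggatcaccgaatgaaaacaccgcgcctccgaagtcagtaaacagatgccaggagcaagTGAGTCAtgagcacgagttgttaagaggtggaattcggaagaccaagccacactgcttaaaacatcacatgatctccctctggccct
Cst7 (chr3:159857030-159857279, plus strand): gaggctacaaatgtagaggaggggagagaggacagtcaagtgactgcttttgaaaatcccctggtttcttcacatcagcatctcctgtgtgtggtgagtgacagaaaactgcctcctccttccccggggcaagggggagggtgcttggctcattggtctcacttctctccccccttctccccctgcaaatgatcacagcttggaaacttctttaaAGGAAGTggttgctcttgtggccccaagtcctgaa
Trem2 (chr9:20151780-20152029, minus strand): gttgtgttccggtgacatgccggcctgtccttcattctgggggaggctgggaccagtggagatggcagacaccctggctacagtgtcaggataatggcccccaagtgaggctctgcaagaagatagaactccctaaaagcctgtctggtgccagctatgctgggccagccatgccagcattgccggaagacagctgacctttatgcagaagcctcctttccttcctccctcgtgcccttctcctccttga
The AP-1 letters stood in Cd68 at 205 to 199 and at 80 to 74 bases before the start and in Gpnmb at 87 to 81 bases before it. Itgax held them as well, so 3 of the 8 promoters had a match, against 6.34% of the 33469 promoters in the RefSeq set. The PU.1-like letters were in Cst7 alone, on the strand of the gene at 35 to 29 bases before the start, and in 7.08% of all promoters. The E-box and STAT letters were in 0 of the 8 promoters, and in 5.59% and 7.67% of all promoters. The Trem2 window, like those of Clec7a, Axl and Cd9, held none of the 4 motifs.

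Total counts per library lay between 15065540 and 23743703. Levels are given as CPM, the count of a gene relative to the library's total, scaled by the trimmed mean of M-values (TMM), and they are compared between groups within a gene but not between genes, because the table gives no gene lengths. Neuronal genes of the hippocampus were read in every library, with a summed level of 8 markers between 3258 and 10331 CPM. In 3 libraries the summed level of 17 choroid plexus genes, led by Ttr, was 2157 CPM or more (sham day 1 replicate 1 and TBI day 14 replicates 2 and 3), and in the other 11 it was 322 CPM or less. Choroid plexus lies against the hippocampus. Calls of the 9 counted genes that changed without those 3 libraries are marked below with their values. This covers TBI against sham of the same day, the difference between the days, and the TBI groups set against each other. For the further gene lists only some such changes are marked. Fewer cells of a type and less RNA per cell cannot be told apart in bulk tissue, and the same holds for more.

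On day 1 after TBI, 7 of the 9 counted genes were higher than in sham rats and 0 were lower (edgeR, adjusted p under 0.05), where 11.2% of all genes tested were called higher and 7.93% lower. The 7 were Tyrobp, Clec7a, Axl, Cd68, Gpnmb, Lgals3 and Cst7, while Trem2 and Cd9 did not pass the test. Clec7a and Cst7 reached 10 counts in 0 of the 6 sham libraries and passed the filter on low counts through TBI libraries alone, so they had to differ. Of the other 7 genes, 5 were higher on day 1 and 7 on day 14. On day 14, 8 of the 9 were higher and 0 lower, against 4.07% and 0.365% of all genes, and Cst7 was the 1 gene not called. The median log2 fold change of those 7 genes was 2.36 on day 1 and 2.12 on day 14 (3.85 and 2.12 over all 9), and that of all genes tested was −0.02 and −0.03.

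**Figure D1:**
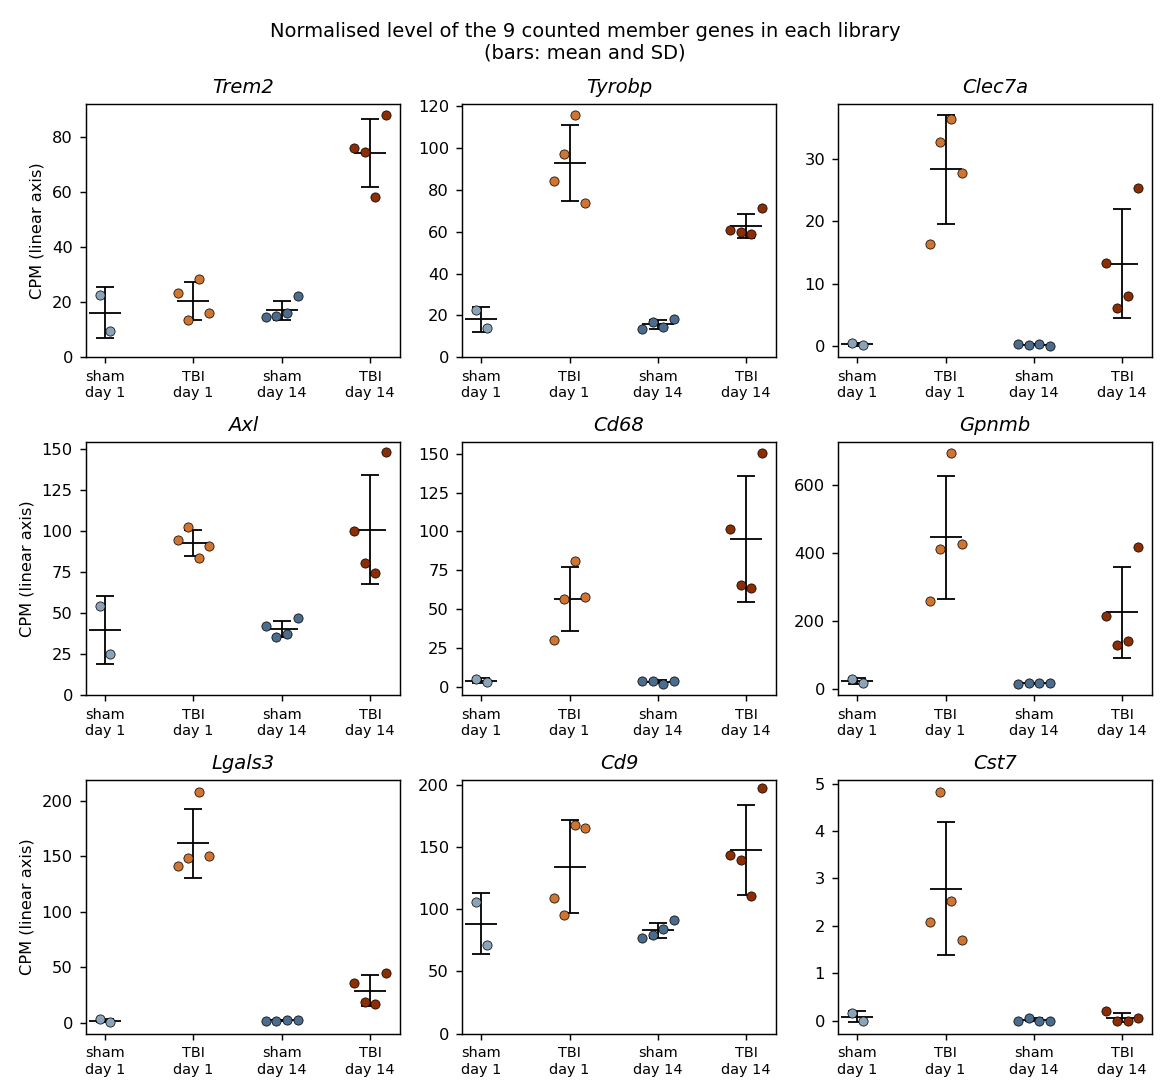
Normalized level (CPM, linear axis, a separate scale for each gene) of the 9 counted genes in each of the 14 libraries, grouped as sham and TBI at day 1 and day 14, with 1 point per rat and bars for the mean and SD. Trem2 is high in the 4 TBI day 14 libraries (58.2 to 88.0 CPM) and near sham on day 1, whereas Lgals3 and Cst7 are highest on day 1.

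The receptor gene was raised on day 14, and the gene of its adaptor on both days. Trem2 read 22.7 and 9.54 CPM in the 2 sham day 1 libraries and 23.3, 13.4, 28.5 and 16.2 CPM in the 4 TBI day 1 libraries. It read 14.6, 15.1, 16.1 and 22.2 CPM in sham day 14 and 76.0, 74.5, 58.2 and 88.0 CPM in TBI day 14. The day 1 groups overlapped, and every TBI day 14 library lay above every other library of the study. On day 1 the log2 fold change of Trem2 was 0.34 (SE 0.33, 95% interval −0.38 to 1.05, adjusted p = 0.509 by edgeR). The value moved with the 2 sham day 1 libraries: leaving out replicate 2 gave −0.16 (adjusted p = 0.839 by edgeR), and leaving out replicate 1 gave 1.09 (adjusted p = 0.0547). Against the 4 sham day 14 libraries, TBI day 1 gave 0.26 (SE 0.27, adjusted p = 0.460 by edgeR), where 25.0% of all genes were called higher and 21.0% lower. On day 14 Trem2 rose by 2.12 on the log2 scale (SE 0.28, adjusted p = 0.000231 by edgeR).

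Tyrobp, which encodes the adaptor, was already high on day 1. Sham day 1 libraries held 22.4 and 13.9 CPM and TBI day 1 libraries 84.0, 97.2, 116 and 73.8 CPM. Sham day 14 libraries held 13.4, 17.1, 14.2 and 18.1 CPM and TBI day 14 libraries 61.0, 60.0, 58.7 and 71.2 CPM. No TBI library overlapped with sham on either day, and all 4 values of TBI day 14 lay below all 4 of TBI day 1. Tyrobp rose by 2.36 on day 1 (SE 0.23, adjusted p = 1.36e-05 by edgeR) and by 2.00 on day 14 (SE 0.18, adjusted p = 9.39e-06), as log2 fold changes against sham of the same day.

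The relation between the 2 genes within a library, as the count of Trem2 divided by the count of Tyrobp, was looked at after their values were seen and is given as a description with no test. It was 1.01 and 0.688 in sham day 1 and 0.277, 0.138, 0.246 and 0.219 in TBI day 1. In sham day 14 it was 1.09, 0.884, 1.13 and 1.23, and in TBI day 14 it was 1.25, 1.24, 0.991 and 1.24. The 4 TBI day 1 libraries thus had fewer Trem2 reads per Tyrobp read than any other library, and the 2 groups of day 14 overlapped. Both genes are counted in the same library, so depth does not enter this ratio.

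**Figure D2:**
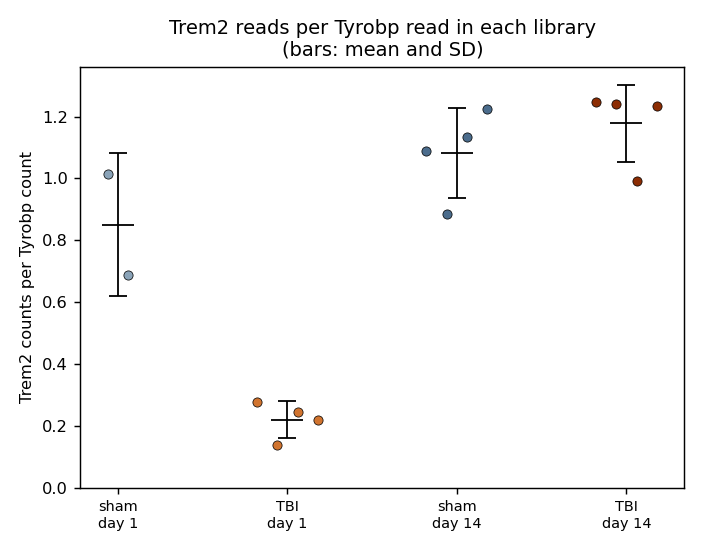
Trem2 counts per Tyrobp count in each library (linear axis from 0), with 1 point per rat and bars for the mean and SD of each group. The 4 TBI day 1 points lie between 0.138 and 0.277, below the other 10 libraries, which lie between 0.688 and 1.25.

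Clec7a encodes Dectin-1, a C-type lectin that binds fungal glucans and signals through SYK, and it was nearly unread in sham hippocampus. The sham libraries held 8 and 3 counts on day 1 (0.431 and 0.138 CPM) and 5, 4, 5 and 1 counts on day 14 (0.328, 0.240, 0.270 and 0.0544 CPM). TBI libraries held 16.4, 32.8, 36.5 and 27.8 CPM on day 1 and 13.3, 6.03, 8.10 and 25.4 CPM on day 14. Every TBI library was above every sham library, and the TBI groups of the 2 days overlapped. The log2 fold change was 6.65 on day 1 (SE 0.75, adjusted p = 4.08e-05 by edgeR) and 5.88 on day 14 (SE 0.57), and both rest on few sham reads. Clec7a was tested at all only through its TBI reads, so its calls against sham are given as a description. In GRCr8 a long noncoding RNA is annotated over one end of Clec7a, and whether the counting used strand is not given in the sources used here.

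Axl encodes a receptor tyrosine kinase that binds GAS6 and PROS1 on dying cells. It read 54.2 and 25.2 CPM in sham day 1 and 94.6, 102, 83.3 and 90.8 CPM in TBI day 1. Sham day 14 libraries read 41.9, 35.6, 37.3 and 46.8 CPM and TBI day 14 libraries 99.97, 80.6, 74.7 and 148 CPM. No TBI library overlapped with sham, and the 2 TBI groups overlapped with each other. The rise was 1.23 on day 1 (SE 0.30, adjusted p = 0.0103 by edgeR) and 1.32 on day 14 (SE 0.23, adjusted p = 0.00258) on the log2 scale. Sham day 1 replicate 2 decided the day 1 call: without it the log2 fold change was 0.77 (adjusted p = 0.156 by edgeR), and with only the 2 day 1 groups in the fit the adjusted p was 0.0554.

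Cd68, the gene of a lysosomal membrane glycoprotein of phagocytes, was low in sham and high on both days. It read 5.12 and 2.77 CPM in sham day 1 and 30.2, 56.7, 80.8 and 57.8 CPM in TBI day 1. It read 3.34, 3.73, 1.73 and 3.70 CPM in sham day 14 and 102, 65.4, 63.2 and 150.2 CPM in TBI day 14. The lowest TBI value was above the highest sham value on each day. The log2 fold change was 3.85 on day 1 (SE 0.50, adjusted p = 0.000132 by edgeR) and 4.93 on day 14 (SE 0.39).

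Gpnmb encodes a transmembrane glycoprotein of lysosomes and phagosomes. Its sham levels were 29.7 and 16.6 CPM on day 1 and 13.8, 16.5, 15.5 and 16.9 CPM on day 14. Its TBI levels were 257, 410.3, 692 and 425 CPM on day 1 and 214, 129, 139 and 418 CPM on day 14. The TBI libraries of both days were all above sham and spread widely among themselves, from 129 to 692 CPM. The rise in log2 units was 4.27 on day 1 (SE 0.54, adjusted p = 0.000103 by edgeR) and 3.84 on day 14 (SE 0.39, adjusted p = 2.97e-05).

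Lgals3, which encodes galectin-3, a secreted and cytosolic lectin that binds damaged lysosomes, had the largest fitted day 1 change after Clec7a. Sham libraries read 3.07 and 0.922 CPM on day 1 and 1.84, 1.56, 2.38 and 2.39 CPM on day 14. TBI libraries read 141, 148, 208 and 150.3 CPM on day 1 and 35.8, 19.0, 16.5 and 44.7 CPM on day 14. All TBI values exceeded all sham values, and all 4 TBI day 14 values were below all 4 TBI day 1 values. The log2 fold change was 6.36 on day 1 (SE 0.55, adjusted p = 5.63e-06 by edgeR) and 3.82 on day 14 (SE 0.37, adjusted p = 1.96e-05).

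Cd9, the gene of a tetraspanin of the cell surface that many glial cells make, had the smallest fitted change of the 9 genes on day 14. It read 106 and 71.0 CPM in sham day 1 and 109, 95.5, 167 and 165 CPM in TBI day 1, and these groups overlapped. It read 77.3, 78.9, 84.3 and 91.3 CPM in sham day 14 and 144, 139, 111 and 197 CPM in TBI day 14, which did not overlap. The day 1 log2 fold change was 0.60 (SE 0.26, adjusted p = 0.116 by edgeR), and the day 14 rise was 0.83 (SE 0.21, adjusted p = 0.0314). The day 14 call was lost in 7 of the 14 fits that left out 1 library (any sham day 14 library, or TBI day 14 replicate 1, 2 or 4), with adjusted p up to 0.134 by edgeR, and it held without the 3 choroid plexus libraries (1.06, adjusted p = 0.0140). Against sham day 14, the TBI day 1 libraries were higher by 0.69 (SE 0.21, adjusted p = 0.0134 by edgeR).

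Cst7, which encodes cystatin F, an inhibitor of lysosomal cathepsins, had reads almost only on day 1 after TBI. The counts were 40, 119, 55 and 38 in TBI day 1 (1.70 to 4.83 CPM), against 3 and 0 in sham day 1, 0, 1, 0 and 0 in sham day 14, and 3, 0, 0 and 1 in TBI day 14. The 4 TBI day 1 libraries stood apart from the other 10, of which none had more than 3 counts. Pooled over libraries, TBI day 1 was 38.4 times sham day 1 (95% exact interval 12.99 to 187, counting error only). Cst7 was tested at all only through its TBI day 1 reads, so its day 1 call (edgeR adjusted p = 0.00277) is given as a description. No ratio is given for day 14, where both groups were at or under 3 counts per library.

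**Figure D3:**
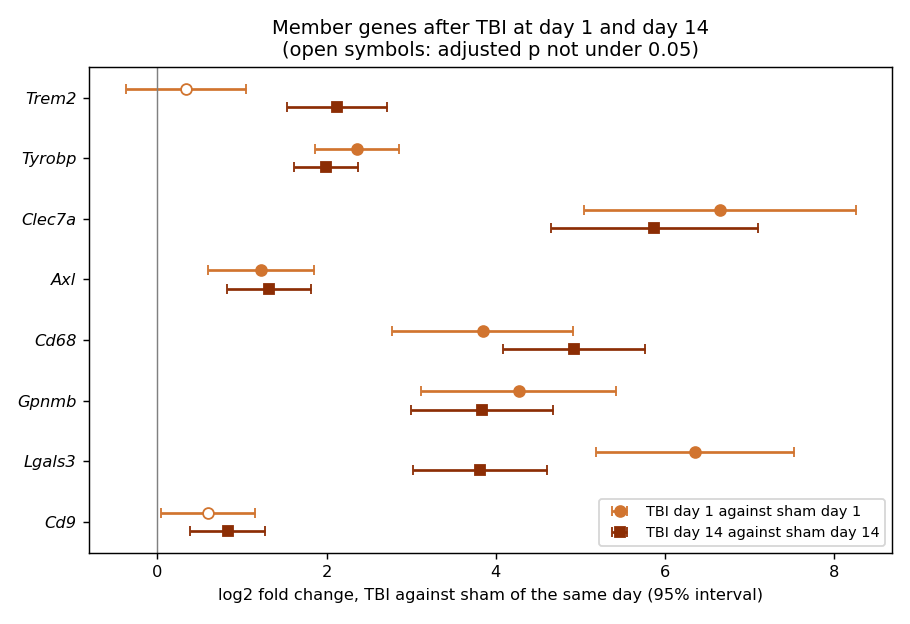
Log2 fold change of TBI against sham of the same day for 8 genes (Cst7, with too few sham reads, is left out), with 95% intervals from edgeR, circles for day 1 and squares for day 14. Filled symbols passed an adjusted p of 0.05. Trem2 and Cd9 are open at day 1, and Lgals3 is the gene whose day 14 interval (3.02 to 4.61) lies wholly below its day 1 interval (5.19 to 7.53).

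The test of the difference between the days, as the TBI effect at day 14 minus that at day 1, called 1 gene higher and 1 lower of 9, where it called 1.44% of all genes higher and 2.24% lower. Trem2 had the larger effect at day 14, by 1.79 on the log2 scale (SE 0.42, adjusted p = 0.0298 by edgeR). Lgals3 had the smaller effect at day 14, with a difference of −2.55 (SE 0.59, adjusted p = 0.0288 by edgeR). The call of Trem2 was lost in 6 of the 14 fits that left out 1 library: with sham day 1 replicate 1 gone the difference was 1.04 (adjusted p = 0.151 by edgeR). Omitting sham day 14 replicate 1 or 2, or TBI day 14 replicate 1, 2 or 4, gave an adjusted p of 0.0510 to 0.0672 by edgeR. Without the 3 choroid plexus libraries it was 1.21 (adjusted p = 0.170 by edgeR). The call of Lgals3 was lost without sham day 1 replicate 2 (−1.90, adjusted p = 0.132 by edgeR) and on omitting sham day 14 replicate 1 or 4 (adjusted p = 0.05003 and 0.0628), and without the 3 choroid plexus libraries it was −3.12 (adjusted p = 0.00576). The other 7 differences were not called, from −0.77 (95% interval −3.06 to 1.51) for Clec7a to 1.08 (−0.11 to 2.28) for Cd68, with Cst7 too low in 3 groups for a value.

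Set directly against each other, TBI day 14 was higher than TBI day 1 for 1 of the 9 genes and lower for 5, where 17.6% of all genes were higher and 21.9% lower. Trem2 was the gene that rose, by 1.87 (SE 0.27, adjusted p = 0.000123 by edgeR). The fall of Lgals3 was the largest of the fitted values, at −2.48 (SE 0.32, adjusted p = 4.81e-05 by edgeR), and Cst7 was 50.9 times lower in pooled counts (95% exact interval 19.7 to 188). Tyrobp (−0.56, adjusted p = 0.0154 by edgeR), Clec7a (−1.10, adjusted p = 0.0341) and Gpnmb (−0.99, adjusted p = 0.0356) were lower as well. These 3 calls were lost without the 3 choroid plexus libraries, with values of −0.46, −0.51 and −0.47 (adjusted p of 0.104, 0.284 and 0.323 by edgeR), and when TBI day 1 replicate 3 was omitted. Clec7a and Gpnmb also lost theirs on omitting TBI day 1 replicate 2 or 4 or TBI day 14 replicate 1, 2 or 3. Cd68 (0.75, 95% interval 0.07 to 1.44, adjusted p = 0.0744 by edgeR), Axl (0.12) and Cd9 (0.14) did not pass the test, and Cd68 was called higher without the choroid plexus libraries (1.19, adjusted p = 0.0171), on omitting TBI day 1 replicate 3 or TBI day 14 replicate 3 (adjusted p = 0.0379 and 0.0409) and with DESeq2 (adjusted p = 0.0467).

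The sham groups of the 2 days did not differ by test for any of the 9 genes: edgeR called 0, also at an unadjusted p under 0.05, and DESeq2 and limma-voom called 0, where edgeR called 11.3% of all genes higher and 7.88% lower in sham day 1. With 2 and 4 libraries this left wide intervals, such as −0.79 to 0.63 for Trem2. Across days, TBI day 14 was higher than sham day 1 for 7 of the 9 genes, where 9.62% of all genes were called higher and 12.4% lower, and TBI day 1 was higher than sham day 14 for 8. In mean level, Trem2 ran from TBI day 14 (74.2 ± 12.2 CPM, SD, n = 4) to TBI day 1 (20.4 ± 6.85), sham day 14 (17.0 ± 3.52) and sham day 1 (16.1 ± 9.33, n = 2), and the last 3 did not differ by test. Tyrobp ran from TBI day 1 (92.7 ± 18.2) to TBI day 14 (62.7 ± 5.70), sham day 1 (18.1 ± 6.04) and sham day 14 (15.7 ± 2.24). Clec7a, Gpnmb and Lgals3 had the same first 2 places as Tyrobp, whereas Axl, Cd68 and Cd9 had the highest mean in TBI day 14 without a called difference from TBI day 1.

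Within groups the genes tended to be high in the same rat. Sham day 1 replicate 1, a library with choroid plexus reads, exceeded replicate 2 in 9 of 9 genes. TBI day 1 replicate 3 was the highest of its group in 7 of 9, and TBI day 14 replicate 4 in 8 of 9. In TBI day 14 the lowest library was replicate 3 in 6 genes and replicate 2 in 3, both of them libraries with choroid plexus reads. These ranks were not counted over all genes tested, so whether they are particular to the 9 genes is not shown. The part of choroid plexus tissue in these levels was not tested beyond leaving the libraries out, which kept 7 genes called on day 1 and 8 on day 14.

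To set the genes against the amount of myeloid RNA, each log2 CPM was compared with the mean log2 CPM of 8 general microglia and macrophage genes (Aif1, Csf1r, Itgam, Laptm5, C1qa, C1qb, C1qc and Spi1) in the same library. That mean was itself 5.26 in sham day 1, 6.67 in TBI day 1, 5.29 in sham day 14 and 6.91 in TBI day 14. Of the 8 genes, 5 were called higher on day 1 and 8 on day 14, against 11.2% and 4.07% of all genes. The day 1 count was also 8 on omitting sham day 1 replicate 1 and without the choroid plexus libraries. Relative to it, Trem2 stood at −1.18 and −1.56 in sham day 1 and at −2.24, −2.95, −1.93 and −2.38 in TBI day 1. The values were −1.37, −1.20, −1.22 and −1.06 in sham day 14 and −0.77, −0.51, −0.71 and −0.86 in TBI day 14. Relative to these 8 genes Trem2 was lower in TBI than in sham on day 1 (by 1.01) and higher on day 14 (by 0.50). The groups did not overlap on either day. Relative to 11 homeostatic microglia genes, however, Trem2 was higher on both days (by 0.94 and 1.22). After TBI the mean log2 CPM of those 11 genes ranged from 4.26 to 4.73 on day 1. The 2 sham libraries of that day had 4.63 and 5.41, so the groups overlapped. Why the sign differed between the 2 references on day 1 was not tested. Tyrobp was higher relative to the 8 genes by 0.96 on day 1 and by 0.37 on day 14. On day 14 the groups overlapped (−1.49 to −1.02 in sham and −1.17 to −0.69 in TBI). Relative to the homeostatic genes Tyrobp was higher by 2.90 on day 1 and by 1.10 on day 14. Clec7a (4.83 and 3.60), Lgals3 (5.06 and 2.04), Gpnmb (2.83 and 2.05) and Cd68 (2.37 and 3.23) were higher relative to the 8 genes on both days, in differences of mean log2 CPM. For Axl the difference of TBI minus sham on day 1 and day 14 was −0.09 and −0.35 relative to the 8 genes. It was 1.86 and 0.37 relative to the homeostatic genes. For Cd9 this difference was −0.82 on both days relative to the 8 genes but 1.12 and −0.10 relative to the homeostatic genes. These are descriptions with no test.

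Many genes of the TREM2 signal were also higher after TBI. Of 14 tested genes of the TREM2 pathway, 10 were higher on day 1 and 8 on day 14, and 0 were lower on either day. Of all genes tested, 11.2% were called higher on day 1 and 4.07% on day 14. Their median change was 1.45 on day 1 and 1.18 on day 14 in log2 units. That of the 8 general microglia and macrophage genes was 1.49 and 1.65, so a rise of this size was not particular to the pathway. Syk, the kinase recruited by TYROBP, rose by 1.15 on day 1 (SE 0.20, adjusted p = 0.0015 by edgeR) and by 1.03 on day 14 (SE 0.16, adjusted p = 0.000897). Ptpn6, the phosphatase SHP-1 that limits such signals, rose by 2.16 and 1.82, and Inpp5d, the lipid phosphatase SHIP1, by 0.76 and 1.12 (largest adjusted p = 0.0244 by edgeR). Vav1, a guanine nucleotide exchange factor, rose by 2.27 and 2.14, and Plcg2, the phospholipase downstream of SYK, by 1.27 and 0.89 (largest adjusted p = 0.0388 by edgeR). On omitting sham day 1 replicate 2 the day 1 calls of Inpp5d (0.44, adjusted p = 0.322 by edgeR) and Plcg2 (0.95, adjusted p = 0.130) were lost. The day 14 call of Plcg2 was lost with limma-voom (adjusted p = 0.0585) and on omitting sham day 14 replicate 2, 3 or 4 or TBI day 14 replicate 1, 2 or 4 (adjusted p up to 0.146 by edgeR). Clec5a, another receptor that uses TYROBP, rose by 2.87 on day 1 (SE 0.31, adjusted p = 3.13e-05 by edgeR) and by 2.38 on day 14. Trem1, a TYROBP receptor of neutrophils and monocytes, had 0 counts in sham day 1 and 231 in TBI day 1, at least 35.2-fold higher than 3 counts over the sham group would be. It stayed under 10 counts in every sham library and passed the filter on low counts through TBI libraries alone, so it had to differ. Adam10 and Adam17, the proteases that shed TREM2 from the surface, were not called, at −0.26 and 0.45 on day 1 and 0.10 and 0.30 on day 14. No gene of the list was called for a difference between the days.

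Among 15 tested partners of the other genes, 4 were higher on each day and 0 lower. Of all genes tested, 11.2% were called higher on day 1 and 4.07% on day 14. The day 1 counts of the partners changed when sham day 1 replicate 2 was omitted, so they rest on that library. Itgb2, the integrin chain that pairs with CD11c and CD11b, rose by 2.43 on day 1 (SE 0.35, adjusted p = 0.00028 by edgeR) and by 2.42 on day 14 (SE 0.26). Itgam, the CD11b chain, rose by 2.64 and 1.75. Ctsc, whose cathepsin is held back by cystatin F, rose by 1.83 on day 1 (SE 0.46, adjusted p = 0.0124 by edgeR) and by 1.95 on day 14 (SE 0.37), and its day 1 call was lost on omitting sham day 1 replicate 2 (1.11, adjusted p = 0.0900 by edgeR). The AXL ligand gene Gas6 was not called, at −0.53 and 0.29, and the ligand gene Pros1 was called on day 14 (0.92, SE 0.22, adjusted p = 0.0246 by edgeR). The related receptors Mertk and Tyro3 were called on neither day, and neither were the lysosomal factors Mitf, Tfeb and Tfe3.

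Other genes of the disease-associated state were also counted. Of all genes tested, 11.2% were called higher and 7.93% lower on day 1, and 4.07% and 0.365% on day 14. Of 6 further stage 1 genes, 3 were higher on day 1 and 4 on day 14, and 0 were lower. Lyz2, the lysozyme of macrophages, led them (3.19, SE 0.47, on day 1 and 1.66 on day 14), followed by the cathepsin genes Ctsd (called on day 14 alone, 1.40, SE 0.21, adjusted p = 0.00078 by edgeR) and Ctsb (1.05 and 0.72). Of 6 further stage 2 genes, 4 were higher and 1 lower on day 1, and 2 were higher on day 14. Lilrb4, an inhibitory receptor, rose on day 1 from 0.138 and 0.269 CPM in sham (3 and 5 counts) to between 50.6 and 97.3 CPM. The chemokine gene Ccl6 rose by 4.18 on day 1 (SE 0.73, adjusted p = 0.00131 by edgeR). Lilrb4 stayed under 10 counts in every sham library and passed the filter on low counts through TBI libraries alone. Ccl6 had at most 7 counts in sham day 1 and 10 in sham day 14. Lpl, the lipoprotein lipase of stage 2 microglia, fell by 1.40 on day 1 (SE 0.29, adjusted p = 0.00387 by edgeR), a call lost on omitting sham day 1 replicate 2 (−1.06, adjusted p = 0.0870) and with only the day 1 groups in the fit (adjusted p = 0.0554). Of 12 remaining genes, 6 were higher on day 1 and 8 on day 14. Spp1, which encodes osteopontin, rose by 10.14 on day 1 (SE 0.79, adjusted p = 3.2e-06 by edgeR), from 0.830 and 1.13 CPM in sham to between 845 and 1221.5 CPM. Its effect was smaller at day 14 (difference −4.15, SE 0.79, adjusted p = 0.0108 by edgeR, but 0.0835 with limma-voom and 0.0558 on omitting sham day 1 replicate 2), as was that of Plin2, a coat protein of lipid droplets (−1.80, adjusted p = 0.0081). Igf1, the growth factor, was not called on day 1 and rose by 2.51 on day 14 (SE 0.38, adjusted p = 0.000691 by edgeR), with a difference of 2.65 (SE 0.56, adjusted p = 0.0192, but 0.0538 with limma-voom).

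Part of the homeostatic microglia genes, which the resting cell keeps high, were lower on day 1 and most were higher on day 14. Of 11, 0 were higher and 4 lower on day 1, and 7 were higher and 0 lower on day 14. The shares over all genes tested were 11.2% higher and 7.93% lower on day 1, and 4.07% and 0.365% on day 14. Tmem119 fell by 1.90 (SE 0.37, adjusted p = 0.00299 by edgeR) and Selplg by 1.39 (SE 0.33, adjusted p = 0.00994) on day 1. The Selplg call was lost when sham day 1 replicate 1 was omitted (−1.05, adjusted p = 0.0792 by edgeR) and without the choroid plexus libraries (−1.06, adjusted p = 0.0511). On day 14 Slc2a5, a fructose transporter gene, rose by 1.59 (SE 0.24, adjusted p = 0.000653 by edgeR). The difference between the days was called higher for 6 of the 11, where it was called higher for 1.44% of all genes. Sham day 1 replicate 1 decided the day 1 count: without it 1 gene was lower and 1 higher, and 3 differences were called. The median log2 fold change of the 11 was −0.43 on day 1 and 0.97 on day 14, where Trem2 had 0.34 and 2.12.

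**Figure D4:**
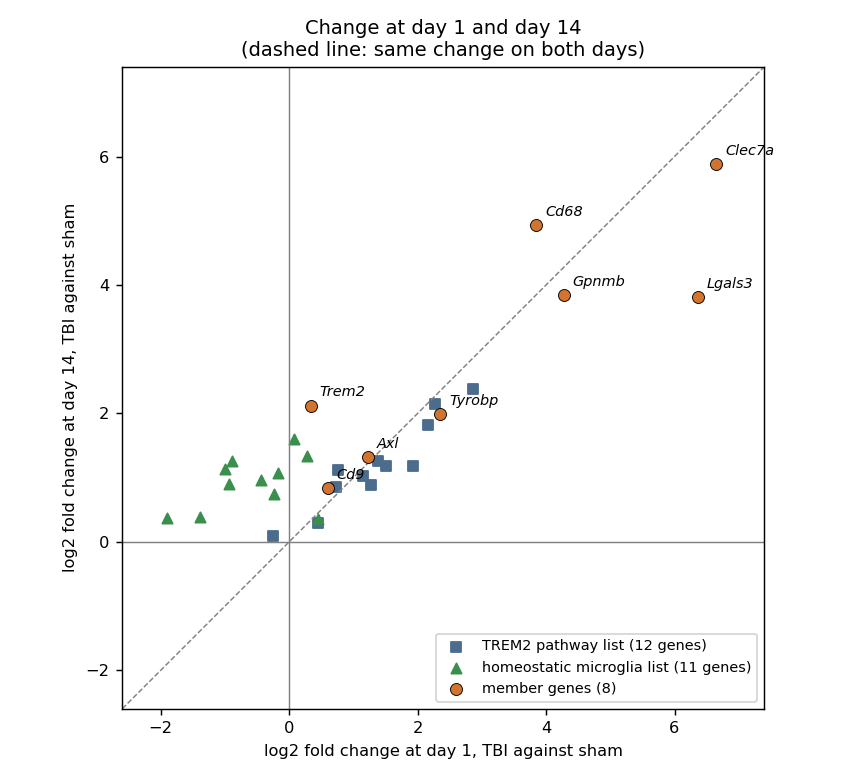
Log2 fold change of TBI against sham on day 1 (x axis) and on day 14 (y axis) for 8 of the counted genes (orange), 12 genes of the TREM2 pathway (blue squares) and 11 homeostatic microglia genes (green triangles), without genes at 3 counts or fewer throughout a group. The pathway genes and Tyrobp scatter around the dashed line of equal change, Lgals3 lies below it (6.36 and 3.82), and Trem2 lies above it (0.34 and 2.12), to the side of the homeostatic genes.

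Markers of monocytes, neutrophils and perivascular macrophages moved with the day 1 rise, where 11.2% of all genes tested were called higher. Monocyte genes summed to between 412 and 676 CPM in TBI day 1, against 78.7 and 121 CPM in sham day 1, and 3 of 5 were called higher, Fn1 among them. Neutrophil genes summed to between 29.6 and 79.7 CPM against 4.43 and 10.2 CPM, with 4 of 6 called higher, led by Cxcr2, S100a9 and S100a8, and Mpo stayed at 3 counts or fewer in every TBI day 1 library. Cxcr2, S100a9 and S100a8 stayed under 10 counts in every sham library. They passed the filter on low counts through TBI libraries alone, so they had to differ. Genes of perivascular macrophages summed to between 46.5 and 68.3 CPM against 8.21 and 14.9 CPM, with 5 of 7 called higher, led by Siglec1, Folr2 and Cd163, but with 1 called when sham day 1 replicate 2 was left out. Of 5 tested lymphocyte genes, Cd2 and Cd8a were called higher, and their list summed to between 6.69 and 18.2 CPM against 2.07 and 11.9 CPM. The median log2 fold change of the 5 was −0.06 on day 1. Cd2 and Cd8a also stayed under 10 counts in every sham library and passed the filter through TBI libraries alone. On day 14 the monocyte list was at 55.3 to 84.3 CPM in TBI and 78.0 to 114 CPM in sham, with 0 of 5 called, and the neutrophil list was at 15.5 to 27.8 CPM against 5.57 to 7.67 CPM, with 1 of 6 called. The perivascular macrophage list was at 12.01 to 36.6 CPM against 6.61 to 9.53 CPM on day 14, with 1 of 7 called, and 0 of 5 lymphocyte genes were called. Of all genes tested, 4.07% were called higher on day 14. In TBI day 14, Cxcr2, Elane and Mpo stayed at 3 counts or fewer in every library. The part of these cells in the levels of Lgals3, Gpnmb, Cd68, Clec7a, Cst7 and Tyrobp was not tested.

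Some genes of other tissue components were called too, where 11.2% of all genes tested were higher and 7.93% lower on day 1. The astrocyte gene Gfap rose on both days (3.10 and 2.06), as 1 of 7 astrocyte genes called. The median log2 fold change of the 7 was −0.31 on day 1 and 0.33 on day 14. On day 1, 1 of 7 astrocyte genes and 1 of 6 endothelial genes called higher is near the share of all genes. On day 1, 2 of 7 oligodendrocyte genes and 4 of 8 neuronal genes (among them Prox1, Rbfox3 and Slc17a7) were lower, and Pecam1 was higher, as 1 of 6 endothelial genes. All 3 of these counts became 0 when sham day 1 replicate 2 was omitted. On omitting sham day 1 replicate 1, 0 oligodendrocyte genes were lower and 3 endothelial genes were higher, and without the choroid plexus libraries these counts were 0 and 2. The 17 choroid plexus genes, of which Otx2 was at 3 counts or fewer in every library, followed the 3 libraries named above, with 13 of 16 called lower on day 1 (0 on omitting sham day 1 replicate 1) and 1 called higher on day 14 (12 on omitting either sham day 1 library). With only the 2 day 1 groups in the fit, Prox1, Rbfox3, Slc17a7 and Pecam1 were not called (adjusted p of 0.186, 0.186, 0.202 and 0.0599 by edgeR). Rbfox3 was also not called with limma-voom (adjusted p = 0.0583). The call of Slc17a7 was also lost without the choroid plexus libraries (−0.81). The part of these tissue components in the levels of Axl and Cd9 was not tested.

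Genes whose profile was most like that of Trem2 or Tyrobp were sought among 11824 genes, by the root-mean-square difference of log2 CPM after centering each gene on its mean over the 14 libraries. These were the tested genes above a lower limit of mean log2 CPM, with the other counted genes of this report left out. Whether another of the counted genes was as close was not looked at. The libraries share their groups, so likeness includes every gene that follows the 4 groups in the same way. Nearest to Trem2 were Tmem176a (0.19), Npc2 (0.26), Tmem176b (0.29), Tifab (0.30) and Alox12 (0.33). NPC2 carries cholesterol out of lysosomes, and TMEM176A and TMEM176B are membrane proteins of macrophages and dendritic cells. Nearest to Tyrobp were Cyba (0.18), Ifi30 (0.18), Vav1 (0.20), Ptpn6 (0.21) and Rac2 (0.22). CYBA and RAC2 are parts of the phagocyte NADPH oxidase, and IFI30 is a lysosomal thiol reductase. The 2 groups of 5 had no gene in common.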

How the data were processed

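RNA was sequenced from 14 ipsilateral hippocampi (stranded mRNA libraries, single-end reads). Per the labels and the study's methods, the authors aligned reads with STAR 2.4.2a to rn5 and counted them per gene with featureCounts 1.5.0, and the deposited table holds raw counts. Day 1 lists of H3K4me3 peaks were not used here, because no rn5 annotation was at hand. The members and lists were chosen with earlier results of these data known. Groups came from the labels. Counts were fitted with edgeR 4.0.16 in R 4.3.3 (TMM factors, filterByExpr by group, 1 mean per group over 14 libraries, quasi-likelihood test, two-sided), with Benjamini-Hochberg adjustment over 12875 genes and a threshold of 0.05. SE was the log2 fold change divided by the square root of F. Log2 CPM used a prior count of 2. A group was taken as too low for a fold at 3 counts or fewer in every library. Intervals of count ratios and this floor cover counting error only. The script was tested on simulated data. Replicates are separate rats, and no 2 libraries of a group agreed within sampling noise. The replicate numbers were not taken as pairs. Named were the 9 counted genes, the 3 called genes of largest change in each further list, genes needed to describe the TREM2 pathway and partners, and the 5 genes most like Trem2 and Tyrobp. Alternatives were limma-voom 3.58.1, DESeq2 1.42.0, median-of-ratios factors, other filters, a replicate block, only the groups compared, a stricter threshold and each library left out. Leaving out the choroid plexus libraries was added after seeing the data. The values of some genes on the marker lists are not reported here.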

Additional observations from a re-analysis of the deposited data

Results flagged for a closer look

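The TBI effect on Trem2 differed between the days by 1.79 on the log2 scale (day 14 minus day 1, edgeR adjusted p = 0.0298), and that on Lgals3 by −2.55 (adjusted p = 0.0288). Both differences passed a test of the difference itself, and both lost it under some of the alternatives given in the report and below. In TBI day 1, the Lgals3 level of replicate 3 (208 CPM) stood far from the other 3 libraries by Dixon's criterion. In sham day 14, the Cst7 level of replicate 2 (0.0601 CPM) stood apart because it was a single count against 0 in the other 3 libraries. The criterion was applied to 27 groups of 4 libraries, and chance alone flags about 5% of groups.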

How the results depend on the processing

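Of the members, the number called higher was 6 to 7 on day 1, 7 to 8 on day 14, 8 to 8 for TBI day 1 against sham day 14 and 6 to 8 for TBI day 14 against sham day 1 when each library was left out in turn, and 0 to 0 in either direction between shams. The difference between the days gave 0 to 1 higher and 0 to 1 lower, and TBI day 14 against TBI day 1 gave 1 to 2 higher and 2 to 5 lower. The difference gave 0 higher and 0 lower with limma-voom and at an adjusted p under 0.01, and 0 higher without the 3 choroid plexus libraries, an alternative chosen after seeing the data. TBI day 14 against TBI day 1 gave 2 higher with DESeq2 and without the choroid plexus libraries, 3 lower with at least 10 counts in every library or with only the groups compared, and 2 lower at an adjusted p under 0.01 or without the choroid plexus libraries. Values that turned sign were all uncalled. With each library left out, the log2 fold change of Trem2 on day 1 ran from −0.16 to 1.09, the difference between the days from −0.56 to 0.54 for Axl and from −0.082 to 0.50 for Cd9, and TBI day 14 against TBI day 1 from −0.12 to 0.26 for Axl and from −0.031 to 0.28 for Cd9. For Axl the difference between the days was −0.060 with limma-voom and −0.23 with the choroid plexus libraries removed. The cause was not tested.

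With the replicate block the members called were 7 on day 1, 8 on day 14, 1 higher and 1 lower for the difference, and 1 higher and 5 lower between the TBI groups, the counts without the block. Same-numbered libraries correlated in their deviations by 0.127 and 0.073 on day 1 and by −0.038, 0.131, 0.240 and 0.115 on day 14, and 2 of the 4 TBI day 14 libraries correlated best with the sham library of their own number. Not every correlation exceeded 0.1 and the labels tie the numbers to no litter or day, so the numbers were not used as pairs, which does not show that the rats were unpaired. Leaving out a sham day 1 library leaves 1, which is then assumed to vary like the other groups. Cst7 has no value in settings where a group is at the floor. Of the 5 genes most alike, 3 remained for Trem2 and 3 for Tyrobp when each gene was scaled.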
